A study of Mus musculus with 2 samples.

Results

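The nuclei described here were picked from single-nucleus ATAC-seq (snATAC-seq) of E15.5 mouse kidneys by open chromatin at 7 genes of the loop of Henle and distal tubule: Slc12a1, Slc12a3, Umod, Sim1, Tfap2b, Kcnj1 and Pou3f3. Nuclei with 4000 to 100000 counts in peaks were ranked by the share of their counts that fell in peaks over these genes or within 2 kb upstream. A nucleus was chosen if it lay in the top 2.5% of both libraries together and had a count for at least 3 of the 7 genes. This gave 286 of 20924 nuclei (1.37%), with 171 among the 9270 nuclei of Enl-WT and 115 among the 11654 of Enl-T1. They are called the chosen nuclei, since the data bore out the name of distal tubule and loop only in part, as shown further on. In the main clustering most of those in Enl-WT lay in a distal or loop-like cluster, though 47.4% did under another setting. Most of those in Enl-T1 did not. Genes of the distal convoluted and connecting tubule were not more open in them than genes in general.

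There were 2 groups with 1 library each. The Enl-T1 embryos were Enl flox-T1/+ Wt1 GFPCre/+, with a Wilms tumour mutation that inserts amino acids into the YEATS domain of ENL, a reader of acylated histones encoded by Enl (Mllt1). The Enl-WT embryos were Enl +/+ Wt1 GFPCre/+, so both groups carried the Cre knock-in, which takes the place of 1 copy of Wt1. Cre under Wt1 acts in the nephron and stromal lineages and their progeny, and the ureteric epithelium and endothelium lie outside it. The sources used here do not say how many embryos made up a library, and accessibility does not show the mutation itself. With 1 library per group no spread between embryos could be measured, so no test of a difference between the groups was made. The 95% intervals given cover counting error only, unless another source is named.

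The loop of Henle and distal tubule arise from the distal part of the nephron precursor, under transcription factors such as Pou3f3, Sim1 and Tfap2b. The thick ascending limb takes up salt through the cotransporter encoded by Slc12a1, recycles potassium through the channel encoded by Kcnj1 and secretes uromodulin, the product of Umod. The distal convoluted tubule uses the cotransporter encoded by Slc12a3, and the distal tubule joins the collecting duct, which comes from the ureteric bud, a separate lineage that shares several of these genes.

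Peaks had been called in each library on its own, so the markers were not covered alike. The 7 genes had 34 peak regions, of which 23 were called in both libraries, 8 in Enl-WT alone and 3 in Enl-T1 alone. Of the 9 regions at Slc12a1, 4 were peaks in Enl-WT alone. These included the one at its start site and the one 9.7 kb into the gene, in an intron. Umod, too, had its start-site peak in Enl-WT alone. The bases before the RefSeq start of both genes (GRCm38.p6) and the middle of the intron peak are shown because these are the windows where the libraries differed in peak calls and where, in Enl-WT, the counts set the loop nuclei apart. They are the Slc12a1 promoter at chr2:125152350-125152599 on the plus strand, the Umod promoter at chr7:119479263-119479512 on the minus strand, and the Slc12a1 intron peak at chr2:125162026-125162325 on the plus strand.
Slc12a1 promoter: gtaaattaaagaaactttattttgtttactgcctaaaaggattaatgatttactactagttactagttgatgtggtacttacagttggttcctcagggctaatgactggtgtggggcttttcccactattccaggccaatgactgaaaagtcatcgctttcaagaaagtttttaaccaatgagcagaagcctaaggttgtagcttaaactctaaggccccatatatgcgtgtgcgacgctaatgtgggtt
Umod promoter: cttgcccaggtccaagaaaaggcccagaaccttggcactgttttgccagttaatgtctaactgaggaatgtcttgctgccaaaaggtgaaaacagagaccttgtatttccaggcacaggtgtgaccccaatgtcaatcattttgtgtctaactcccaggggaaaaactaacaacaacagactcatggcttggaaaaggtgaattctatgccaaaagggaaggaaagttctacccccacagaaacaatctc
Slc12a1 intron peak: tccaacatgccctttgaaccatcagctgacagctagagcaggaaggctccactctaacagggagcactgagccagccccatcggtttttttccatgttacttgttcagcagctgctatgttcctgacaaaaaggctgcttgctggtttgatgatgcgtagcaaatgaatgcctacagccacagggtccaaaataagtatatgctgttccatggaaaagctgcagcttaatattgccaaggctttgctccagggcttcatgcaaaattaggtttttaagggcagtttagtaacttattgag
Of the 15 motifs searched below, the Slc12a1 promoter held the FOX motif TGTTTAC, the Umod promoter held the TEAD motif GGAATG, and the intron peak held none, which says only that those letters are not in it.

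The limit for the top 2.5% lay at a marker level of 662 CPM, counts scaled to a total of 1000000 for the nucleus or group. The last nucleus inside it had 662.3 and the fifth from last 668, while the first outside with 3 markers had 661 and the fifth 659.8. The median was 819 among chosen nuclei, with a highest value of 1855, and 80.5 over all nuclei. These values rest on few counts. The median number of marker counts in a chosen nucleus was 12 for Enl-WT, with a range of 5 to 25, and 8 for Enl-T1, with a range of 5 to 17, and 2 counts stand for about 1 fragment.

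Chosen nuclei made up 1.84% of Enl-WT nuclei (95% interval 1.58 to 2.14%) and 0.987% of Enl-T1 nuclei (0.815 to 1.18%), a ratio of 1.87. The Enl-T1 library was shallower, with a median of 9023 counts per nucleus against 14893. The need for 3 markers fell harder on it: of the nuclei in the top 2.5%, 63 of 234 from Enl-WT and 174 of 289 from Enl-T1 had counts for fewer than 3. Among chosen nuclei of Enl-WT, 72 had 3 markers, 66 had 4, 20 had 5, 12 had 6 and 1 had all 7. In Enl-T1, 84 had 3, 29 had 4, and 1 each had 5 and 6. With every nucleus thinned to 4000 counts before the choice, 46 Enl-WT nuclei (0.496%) and 15 Enl-T1 nuclei (0.129%) were chosen. Counted only over regions with a peak in both libraries, the shares were 1.34% and 1.05%, a ratio of 1.28. In Enl-WT, 16.8% of the marker counts of chosen nuclei lay in peaks called in that library alone. The part of depth and of peak calls in the difference between the libraries was not tested.

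All 7 genes had more CPM in chosen than in other nuclei of each library, as the choice demanded, and these values are a description. In Enl-WT, Slc12a1 stood at 122.6 CPM in chosen nuclei (104 to 144) and 17.8 in the others. In Enl-T1 it stood at 83.3 (61.7 to 112) and 14.5. Umod stood at 37.5 CPM against 9.27 in Enl-WT, and at 18.3 against 2.52 in Enl-T1. Sim1 and Pou3f3, which encode transcription factors, were the genes most often detected: 88.3% and 80.7% of the Enl-WT chosen nuclei had a count for them, and 74.8% and 68.7% of those of Enl-T1. Umod was the least often detected, in 20.5% and 5.22%, with its start-site peak counted in Enl-WT alone.

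**Figure D1:**
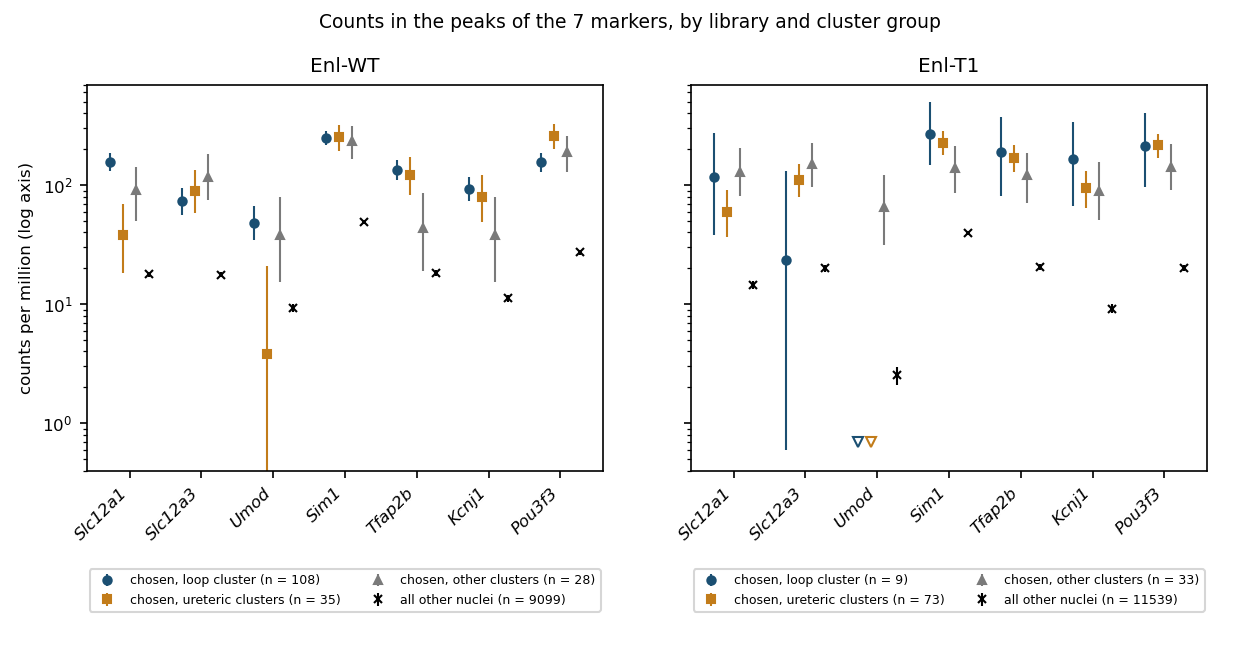
Counts scaled to 1000000 (CPM) in the peaks of each of the 7 markers (log axis) for chosen nuclei of the loop cluster, the ureteric clusters and the other clusters and for all other nuclei, with Enl-WT on the left and Enl-T1 on the right. Points are summed over nuclei, bars are 95% intervals for counting error, and open triangles at the foot mark groups with no count. Chosen nuclei of Enl-WT in the loop cluster had 157 CPM at Slc12a1 and those in the ureteric clusters 37.8.

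To see what kind of nuclei these were apart from the 7 genes, all 20924 nuclei were clustered on 110631 regions that left out every marker region. This gave 25 clusters, of which 22 could be named from marker genes, by a scoring rule set after the clusters had been seen. One cluster was distal or loop-like. It had 20 of its 27 class markers raised, and it was led by Cldn19, Kif12, Esrp1, Mal, Ttll10, Kcnj1, Stk32b, H2-DMb2, Pou3f3 and Arhgef38. Cldn19 encodes a claudin of the tight junctions that let calcium and magnesium pass in the thick ascending limb. A further 3 clusters were ureteric epithelium-like, led by genes such as Shh, Wnt9b, Cldn4 and Foxa1.

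Of the chosen nuclei of Enl-WT, 108 of 171 lay in the loop cluster (63.2%, 55.5 to 70.4%), 35 in the ureteric clusters (20.5%, 14.7 to 27.3%) and 28 in others (16.4%), 14 of them in the proximal tubule-like cluster. In Enl-T1 few lay in the loop cluster and most in the ureteric ones. There, 9 of 115 lay in the loop cluster (7.83%, 3.64 to 14.3%), 73 in the ureteric clusters (63.5%, 54.0 to 72.3%) and 33 elsewhere (28.7%). The intervals of the libraries do not overlap for the loop or for the ureteric clusters. So by the rest of their open chromatin most chosen nuclei of Enl-T1 were ureteric epithelium-like, against the name of distal tubule and loop. Of the nuclei picked by the same rule with ureteric markers, 133 of 203 from Enl-WT and 176 of 215 from Enl-T1 lay in the ureteric clusters, and 11 and 5 of them were also among the chosen nuclei.

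The rate at which nuclei of a cluster group were chosen differed less. It was 14.6% of the 739 loop-cluster nuclei of Enl-WT (12.1 to 17.4%) and 12% of the 75 of Enl-T1 (5.64 to 21.6%). In the ureteric clusters it was 4.0% of 874 (2.80 to 5.53%) and 4.38% of 1665 (3.45 to 5.48%), and in the others 0.366% and 0.333%. The intervals of the libraries, for counting error only, overlap in every group. What differed was how many nuclei each group held. The loop cluster held 7.97% of Enl-WT nuclei and 0.644% of Enl-T1 nuclei, and the ureteric clusters 9.43% and 14.3%. Since nuclei of the libraries were not integrated before clustering, a cluster mostly of 1 library may stand for that library, and that cannot be told apart here from fewer loop nuclei.

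**Figure D2:**
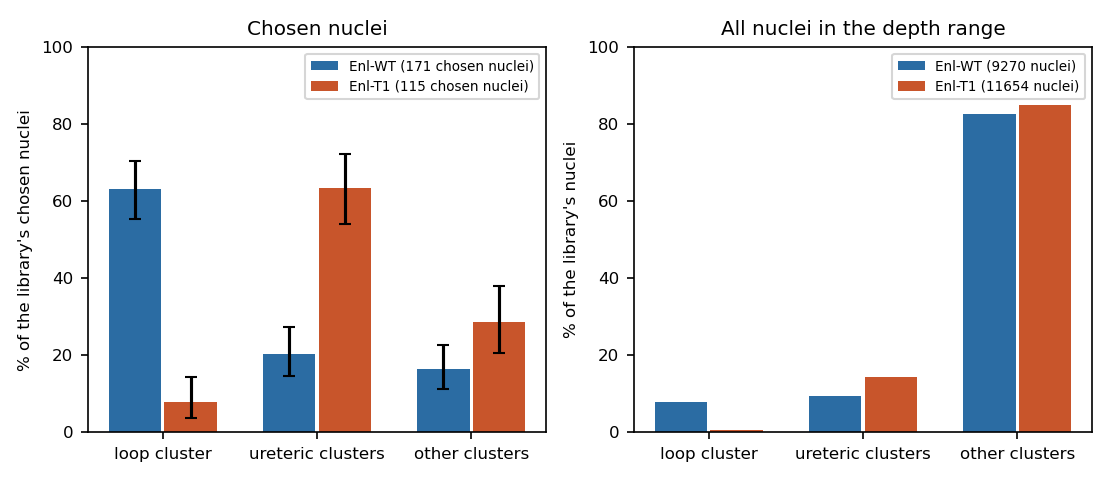
Left, percentage of each library's chosen nuclei in the loop cluster, the 3 ureteric clusters and the other clusters, with 95% intervals. Right, the same for all nuclei. Enl-WT chosen nuclei sat mostly in the loop cluster (63.2%) and Enl-T1 chosen nuclei mostly in the ureteric clusters (63.5%).

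Chosen nuclei also lay near each other, but in Enl-T1 only weakly. Among the 15 nearest neighbours of a chosen nucleus, found without the marker regions, 14.1% were chosen in Enl-WT (12.8 to 15.52%) against 1.80% around other nuclei. In Enl-T1 the share was 3.54% (2.72 to 4.52%) against 0.938%. These intervals count each neighbour of each nucleus as a separate draw, which they are not, so they are too narrow. The share was highest around chosen nuclei of the loop cluster, with 19.6% in Enl-WT and 10.4% in Enl-T1, then around those of the ureteric clusters, with 7.43% and 4.11%, while chosen nuclei outside both cluster groups had 1.19% and 0.404%, below the rate around other nuclei. In Enl-WT 52 chosen nuclei, and in Enl-T1 71, had no chosen neighbour at all.

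Over whole clusters, chosen or not, the 7 markers split into genes that set the loop cluster apart and genes it shared with the ureteric clusters. The marker regions took no part in the clustering, though these genes helped to name the loop cluster. Slc12a1 had 64.7 CPM in the loop cluster of Enl-WT (58.3 to 71.6) against 14.2 in the ureteric clusters, a log2 ratio of 2.19 (1.85 to 2.51). Umod had 19.6 against 1.17 CPM, a log2 ratio of 4.07 (3.04 to 5.32), with 9.83 in the other clusters. These genes of the thick ascending limb were the ones that told the groups apart. Over the 4 Slc12a1 regions called in both libraries the log2 ratio was smaller, 1.12 (0.67 to 1.58), and over the 1 such region of Umod it was 5.20 (3.62 to 8.59).

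Sim1, Tfap2b and Kcnj1 were higher in the loop cluster by less, and the intervals of Pou3f3 and Slc12a3 included no difference. In Enl-WT, Sim1 had 127 CPM in the loop cluster and 94.4 in the ureteric clusters, Tfap2b 53.0 and 42.0, and Kcnj1 38.6 and 31.5. Over the regions called in both libraries the interval of Tfap2b included no difference as well (0.21, -0.04 to 0.46). Pou3f3 had 80.9 and 75.7, a log2 ratio of 0.10 (-0.09 to 0.28). Slc12a3 had 25.03 and 22.8, with 17.8 in the other clusters, so it marked neither group strongly. Of the 7, then, 4 (Sim1, Tfap2b, Kcnj1 and Pou3f3) stood well above the other clusters in both the loop and the ureteric clusters: the other clusters had 39.2, 13.9, 7.43 and 19.4 CPM.

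The Enl-T1 ureteric clusters had the same 4 genes high, with 87.5 CPM at Sim1, 52.8 at Tfap2b, 22.1 at Kcnj1 and 73.0 at Pou3f3. In the Enl-T1 loop cluster of 75 nuclei, Slc12a1 had 22.8 CPM (9.86 to 45.02) and Umod 5.71, from 4 counts. The log2 ratio of Enl-T1 to Enl-WT in the loop cluster was -1.50 for Slc12a1 (-2.72 to -0.51) and 0.26 for Sim1 (-0.15 to 0.68). The ratio for Slc12a1 rests on the peak calls. Its 4 regions with a peak in Enl-WT alone have no counts in Enl-T1, and over the 4 regions called in both libraries Slc12a1 had 20.3 CPM in the loop cluster of Enl-WT and 19.99 in that of Enl-T1, a log2 ratio of -0.02 (-1.37 to 1.07). In all chosen nuclei, too, the ratio of Enl-T1 to Enl-WT was -0.56 over each library's own peaks and 0.76 over the regions called in both, so no direction can be given for Slc12a1 between the libraries.

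Among the chosen nuclei themselves, the loop and ureteric clusters met the limit through different genes. In Enl-WT, Slc12a1 had 157 CPM (131 to 187) in chosen nuclei of the loop cluster and 37.8 (18.1 to 69.5) in those of the ureteric clusters. Umod had 48.1 and 3.78, the latter from 1 nucleus. Pou3f3 went the other way, with 156.5 CPM (130 to 185) and 257 (199.6 to 326). These counts took part in the choice, so nuclei low in Slc12a1 and Umod could reach the limit only through the other markers. The values are thus a description, and over whole clusters of Enl-WT the Pou3f3 log2 ratio of loop over ureteric was 0.10 (-0.09 to 0.28). Sim1 was even, with 248 and 251.

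In Enl-T1 the 73 chosen nuclei of the ureteric clusters had 227 CPM at Sim1, 216 at Pou3f3, 169 at Tfap2b and 59.6 at Slc12a1 (36.9 to 91.1). None of them, and none of the 9 in the loop cluster, had a count at Umod. The start-site peak of Umod was not called in Enl-T1, so only the peak at 2.1 kb could be counted there. The bounds that follow hold for that peak alone. A count of 0 in 73 nuclei allows a share of up to 4.11% with a count, set at 3 nuclei, with an exact upper bound of 4.93%, and in 9 nuclei up to 33.3%, with an exact bound of 33.6%. All 20 Umod counts of Enl-T1 chosen nuclei came from 6 nuclei of the other clusters.

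Single peaks told the groups apart more sharply than whole genes. The Slc12a1 start-site peak (chr2:125151995-125152792) had 55 counts in Enl-WT chosen nuclei, 50 of them in the loop cluster and 0 in the ureteric clusters. Over whole clusters it had 9.55 CPM in the loop, 0.365 in the ureteric and 0.821 in the other clusters. The intron peak at 9.7 kb (chr2:125161736-125162615), whose middle is printed above, had 88 counts in chosen nuclei, 80 of them in the loop cluster, and 22.4, 3.35 and 0.687 CPM over whole clusters. The peak at 6.3 kb had 11.0, 0.729 and 0.678 CPM. The 4 Slc12a1 peaks called in both libraries had log2 ratios of loop over ureteric clusters of 0.74 to 2.06 in Enl-WT, and the 4 called there alone 1.74 to 4.71. The peak at 62.2 kb, in an exon, had 6.45 CPM in the loop and 3.86 in the ureteric clusters of Enl-WT, and 17.1 and 3.50 CPM in Enl-T1, where it held 12 of the 16 Slc12a1 counts of the loop cluster.

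Tfap2b, a transcription factor gene needed for the distal convoluted tubule, was open at different peaks in the groups. Its peak at 0.1 kb (chr1:19208570-19209451) had 10.9 CPM in the loop and 3.72 in the ureteric clusters of Enl-WT, a log2 ratio of 1.55 (0.86 to 2.26). Its peak at 3.1 kb (chr1:19211560-19212487), at another annotated start, had 13.2 and 23.3 CPM, a log2 ratio of -0.82 (-1.25 to -0.43). Enl-T1 showed the same order, with 14.3 against 6.17 CPM at the first and 12.9 against 22.4 at the second, though with wide intervals from 10 and 9 loop-cluster counts. The peaks at 22.4, 26.2 and 27.9 kb, in exons, also stood higher in the loop cluster of Enl-WT, with log2 ratios of 2.24, 1.33 and 1.33. The peak at 1.1 kb had -0.21 (-0.90 to 0.47). So over all its peaks Tfap2b was only somewhat higher in the loop cluster of Enl-WT, 0.34 (0.10 to 0.57), while single peaks differed in direction.

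**Figure D3:**
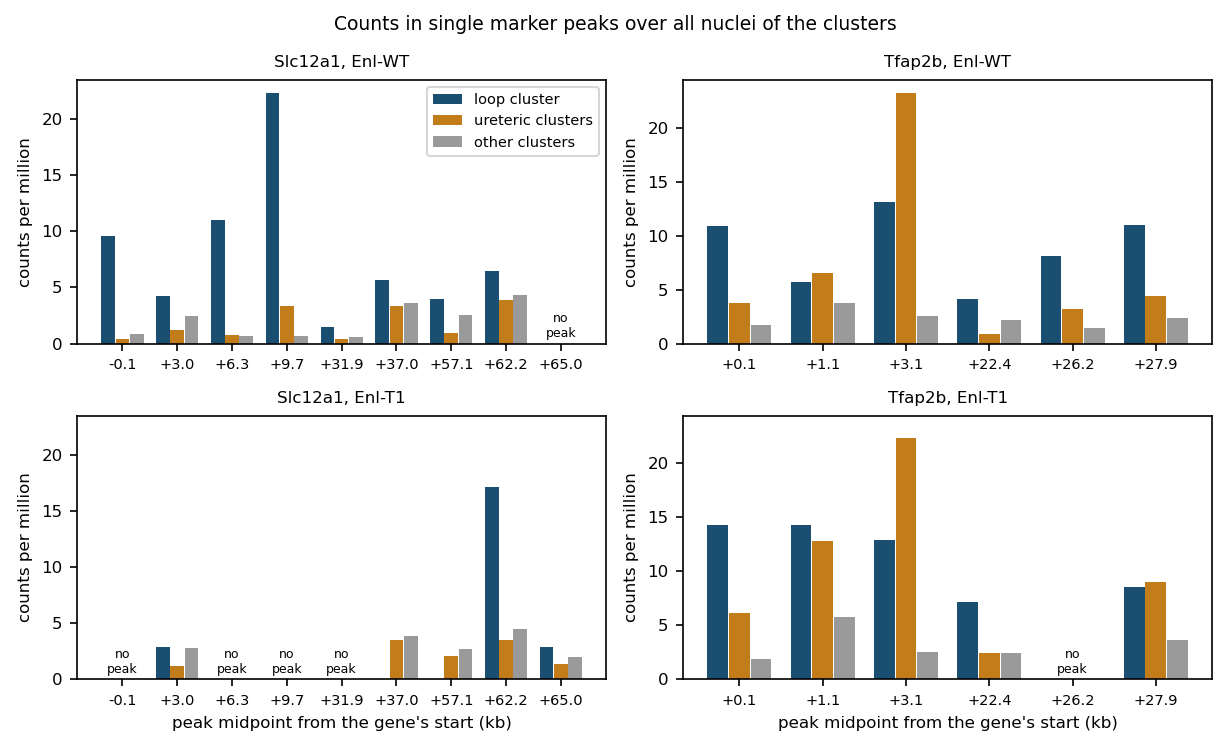
CPM in single peaks of Slc12a1 (left) and Tfap2b (right) over all nuclei of the loop, ureteric and other clusters, by the distance of the peak midpoint from the start of the gene in kb, for Enl-WT (top) and Enl-T1 (bottom). Peaks called in the other library alone are marked as having no peak. In Enl-WT the Slc12a1 peak at 9.7 kb had 22.4 CPM in the loop cluster and 3.35 in the ureteric clusters, and the Tfap2b peak at 3.1 kb was higher in the ureteric clusters of both libraries.

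The question next was whether other genes of the distal nephron were open in the chosen nuclei. For this, counts over each gene and 2 kb upstream were summed over the regions with a peak in both libraries and compared, as log2 ratios of CPM, between chosen and all other nuclei of a library. Medians and counts of genes used ratios with 0.5 counts added, and the values of single genes have nothing added. Over the 19987 genes with at least 10 CPM, the median was 0.03 for Enl-WT and 0.01 for Enl-T1. Of these genes 10676 were above 0 in Enl-WT and 10250 in Enl-T1, which is the background for counts of genes above 0 in the lists. At least 2-fold higher in chosen nuclei were 308 genes in Enl-WT (1.54%) and 459 in Enl-T1 (2.3%, on fewer counts). No test stands behind these folds.

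Genes of thick ascending limb transport were more open in chosen than in other nuclei of Enl-WT, and less clearly so in Enl-T1. Of the 20 in the list, 19 passed the filter, all but Cldn16. In Enl-WT the median was 0.88, 18 of 19 were above 0 and 9 were at least 2-fold higher, against 1.54% of all genes. In Enl-T1 the median was 0.39, with 14 above 0 and 3 at least 2-fold higher, against 2.3%. The size of these medians depended on the regions counted and the nuclei compared with. Over regions whose peaks matched by 80% the medians were 0.60 and 0.66, so the order of the libraries turned. Within 2 kb of start sites they were 0.49, with 5 genes at least 2-fold higher, and 0.29, with 1. Against proximal tubule nuclei picked by the same rule they were 0.42, with 4, and 0.32, with 3. Ureteric nuclei share part of this list. In chosen nuclei of the loop cluster its median was 1.14 in Enl-WT and 0.87 in Enl-T1, and in those of the ureteric clusters 0.35 and 0.55.

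Cldn19 (chr4:119255414-119262438) led the list, with 63.5 against 14.9 CPM in Enl-WT, a log2 ratio of 2.09 (1.71 to 2.43), and 45.03 against 7.49 in Enl-T1, 2.59 (1.96 to 3.22). Mal, which encodes a protein that sorts membrane cargo to the apical surface, had 83.7 against 21.6 CPM in Enl-WT and 32.6 against 17.0 in Enl-T1. Bsnd, the subunit that the basolateral chloride channels of this segment need, had log2 ratios of 1.41 and 0.96. The potassium channel genes Kcnj16 and Kcnj10 had 1.29 and 1.11 in Enl-WT, and 1.43 and 0.80 in Enl-T1. Casr, the calcium-sensing receptor, had 1.08 (0.75 to 1.39) and 0.38 (-0.32 to 0.99). Over regions whose peaks matched by 80%, with the added count, Kcnj10 was lower, at 0.56 and 0.71, and Casr higher, at 1.56 and 1.05.

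Other genes of the list were less raised or varied between the libraries. For the sodium pump, its subunit gene Atp1b1 had 1.00 in Enl-WT, where it reached 2-fold only with the added count, and 0.76 in Enl-T1, and its regulator Fxyd2 1.27 and 0.33. Over regions whose peaks matched by 80%, with the added count, Fxyd2 had 0.29 and -0.03. Egf, which the thick ascending limb and distal convoluted tubule release, had 0.61 and 0.58. Cldn14, Sorl1, Stk39 and Ppp1r1a lay between -0.29 and 0.27 in both libraries.

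Genes of the distal convoluted and connecting tubule were not more open than genes in general. The list had a median of -0.02 in Enl-WT and 0.07 in Enl-T1 over 13 of its 15 genes. None was 2-fold higher in Enl-WT and 1 was in Enl-T1. That was Calb1, a calcium-binding protein of the connecting tubule, with 36.4 against 13.5 CPM, a log2 ratio of 1.44 (0.69 to 2.09), and 0.64 (-0.08 to 1.27) in Enl-WT. In Enl-WT, Calb1 was lower in the loop-cluster than the ureteric-cluster chosen nuclei, with 9.76 and 42.3 CPM, and it is known from the ureteric bud as well. Wnk4, a kinase that sets the activity of the Slc12a3 cotransporter, had 0.46 (0.19 to 0.73) and 0.31, and Klhl3, which marks that kinase for decay, 0.49 and 0.06. Slc8a1 had -0.51 and -0.52.

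Distal nephron transcription factor genes were open somewhat more in chosen nuclei of both libraries. Of 16 genes 14 passed, all but Foxq1 and Irx1. Their median was 0.43 in Enl-WT, with all 14 above 0, against 10676 of all 19987 genes. In Enl-T1 it was 0.47, with 13 above 0, against 10250 of all 19987. One was at least 2-fold higher in Enl-WT and none in Enl-T1. Emx2, a homeobox gene of the nephric duct and tubules, had 1.00 (0.67 to 1.31) and 0.92 (0.34 to 1.45). Tfap2a, the relative of Tfap2b, had 0.73 and 0.68. Mecom had 538 against 319 CPM in Enl-WT, 0.75 (0.63 to 0.87), but 394 against 345 in Enl-T1, 0.19 (-0.01 to 0.39). Irx2 and Irx3, factors of the intermediate nephron segments, had 0.61 and 0.41 in Enl-WT and -0.04 and 0.18 in Enl-T1.

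The list of genes shared by tubule epithelia had the highest medians of all lists, 1.10 in Enl-WT and 1.08 in Enl-T1, with 8 of 14 genes at least 2-fold higher in each library. Epcam and Cdh1, adhesion genes of epithelia, had 1.41 and 1.38 in Enl-WT and 1.40 and 1.57 in Enl-T1. Esrp1, a splicing regulator of epithelia, had 1.60 and 2.12. Ureteric and collecting duct genes were raised as well, with medians of 0.65 and 0.89 over 15 of 16 genes, and 14 and all 15 of them above 0. Among them Tfcp2l1, a factor of the distal tubule and collecting duct, had 1.42 (1.18 to 1.64) in Enl-WT chosen nuclei and 0.88 (0.37 to 1.35) in those of Enl-T1, and Wnt9b, the ureteric signal that starts nephron formation, 1.38 and 0.95. Scnn1g, a subunit of the epithelial sodium channel, had 0.64 and 1.59.

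Macula densa genes had medians of 0.53 in Enl-WT and 0.43 in Enl-T1 over 4 of 6, with all 4 above 0 in both libraries and none at least 2-fold higher. Most of the remaining lists stood near or below the level of all genes. Early nephron and Notch genes had 0.19 and -0.06 over 12 of 14. Proximal tubule genes had -0.13 and -0.05, over only 7 of 15, and nephron progenitor genes -0.12 and -0.20 over all 11. Podocyte genes had -0.38 and -0.37 over 9 of 10, stromal genes -0.92 and -0.44 over 12 of 14, and Hox genes -0.17 and -0.31 over 33 of 39. Endothelial genes had -0.70 and -0.38 over 8 of 10, and their summed level was 232 CPM in chosen and 389 in other nuclei of Enl-WT but 349.7 and 343 in Enl-T1. Immune genes had 0.15 and 0.64, over only 3 of 8, since Tyrobp, Fcer1g and Lyz2 had no counts. Markers of endothelium and stroma were thus less depleted in chosen nuclei of Enl-T1 than of Enl-WT, and their part in the differences between the libraries was not tested.

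**Figure D4:**
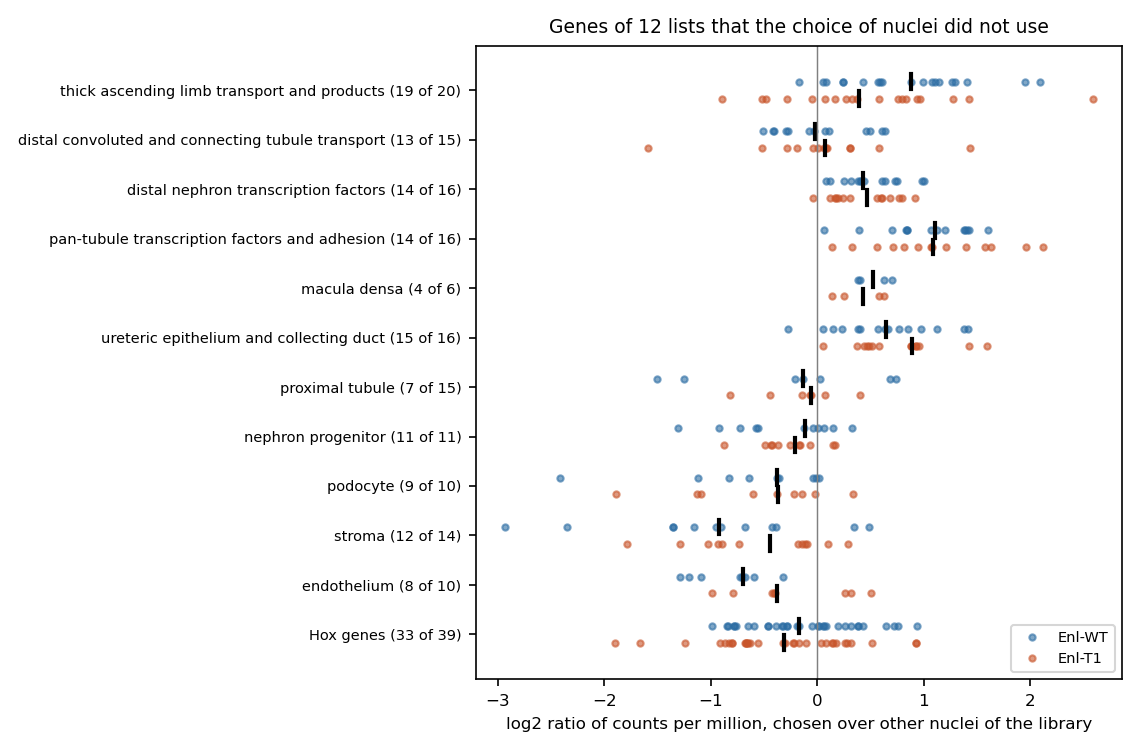
Log2 ratio of CPM in chosen over other nuclei for each gene of 12 lists (dots, with the number of genes passed in brackets), for Enl-WT (blue) and Enl-T1 (orange). Black bars are medians. The median of the thick ascending limb list was 0.88 in Enl-WT and 0.39 in Enl-T1, and that of the tubule epithelium list 1.10 and 1.08. A gene with no count in the chosen nuclei of a library (Hoxa2 in Enl-T1) has no dot.

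Outside the lists, the 12 protein-coding genes with the highest ratios in Enl-WT included Cldn19, Mal and Esrp1, which are list genes. Kif12, a kinesin gene of tubules, had 74.7 against 18.6 CPM, a log2 ratio of 2.01 (1.67 to 2.33), and in Enl-T1 33.5 against 8.99, 1.90 (1.17 to 2.62). The others were Gm8439 (1.93 and 1.59), Mal2 (1.65 and 1.42), Jhy (1.63 and 2.48), Ttll10 (1.61 and 1.91), Blnk (1.60 and 0.97), Prom2 (1.57 and 1.72), Klhdc7a (1.57 and 1.54) and Kcnc2 (1.55 and 0.80). All 12 were above 0 in Enl-T1 too, although they were picked in Enl-WT. Cldn19, Esrp1, Jhy, Mal2 and Gm8439 also led 1 or more of the ureteric clusters.

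The chosen nuclei of the loop and the ureteric clusters in Enl-WT differed at both loop and collecting duct genes. The thick ascending limb list had a median log2 ratio of loop over ureteric of 0.38, with 15 of 19 genes above 0, while the ureteric list had -0.34, with 4 of 15 above 0 and the median of all genes at 0.03. Other lists stood as high on the loop side, with 0.58 for proximal tubule genes (6 of 7 above 0), 0.43 for stromal genes (8 of 12) and 0.37 for Hox genes, and distal convoluted tubule genes had -0.07, so the difference was not particular to loop genes. Fxyd2 had 69.0 and 10.6 CPM, a log2 ratio of 2.71 (1.11 to 6.13), and Casr 99.0 and 25.4, 1.96 (0.77 to 3.46). Pappa2, a protease gene of the macula densa, had 53.7 and 12.7 CPM, 2.08 (0.40 to 4.401).

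Wnt9b stood the other way, with 64.1 CPM in the loop and 199 in the ureteric cluster nuclei, -1.63 (-2.25 to -1.02), as did Gata3, a factor of the nephric duct and ureteric bud, with 70.4 and 188, -1.42 (-2.03 to -0.80). Elf5 had 41.1 and 112, -1.45 (-2.20 to -0.58). The posterior HoxA genes followed the loop side. Hoxa9 had 71.1 CPM against 8.46, 3.07 (1.14 to 6.15), Hoxa10 87.1 against 12.7 and Hoxa11 39.0 against 4.23. Hoxa9 and Hoxa10 share regions, so these are not separate measurements. Hoxd11 had 65.5 against 8.46 CPM, 2.95 (1.02 to 6.04).

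Over all shared regions, chosen nuclei of Enl-T1 had less open thick ascending limb genes than those of Enl-WT. The difference was not seen over the list among chosen nuclei of the ureteric clusters. The order of the libraries also depended on the regions counted. Over regions whose peaks matched by 80%, the list's median of chosen over other nuclei was 0.60 in Enl-WT and 0.66 in Enl-T1. The direct ratio of the libraries was not computed for the list over those regions. Of 18497 genes with at least 40 counts in chosen nuclei, 360 were at least 2-fold higher in Enl-T1 (1.95%) and 475 at least 2-fold lower (2.57%). Their median was -0.04, and 8483 of them were above 0. In the thick ascending limb list 0 of 19 were at least 2-fold higher and 6 at least 2-fold lower, with a median of -0.41. Among the latter were Mal at -1.36 (-2.20 to -0.61), Fxyd2 at -1.28, Ptger3 at -1.23 (-3.37 to 0.19) and Bsnd at -1.18 (-2.07 to -0.28). Within chosen nuclei of the ureteric clusters, the list had a median of 0.11, with 13 of 19 genes above 0. There Fxyd2 was at 1.33 (-0.62 to 4.91), while Mal was at -0.84 (-2.00 to 0.21) and Bsnd at -1.10 (-2.29 to 0.03), with intervals that include no difference. The 9 loop-cluster nuclei of Enl-T1 were too few for such a comparison.

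Lists of the nephron and ureteric epithelium differed less between the libraries. Distal transcription factors had a median of -0.24 for Enl-T1 over Enl-WT in all chosen nuclei and -0.04 within the ureteric clusters. Ureteric genes had 0.02 and tubule epithelium genes -0.01. Hox genes had -0.16, with 9 of the 30 that passed above 0. Tfcp2l1 was at -1.08 (-1.63 to -0.55) in all chosen nuclei and at -0.36 (-1.12 to 0.35) within the ureteric clusters. Endothelial genes differed more, with 0.56 over 7 genes, with Pecam1 at 1.15 (0.56 to 1.74), Plvap at 1.16 (0.23 to 2.09) and Flt1 at 0.76 (0.17 to 1.29).

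Over all genes, the 5 highest in Enl-T1 chosen nuclei against those of Enl-WT were Baalc at 2.71 (1.28 to 4.30), Morc1 at 2.52, Tm4sf1 at 2.01, Scn1a at 1.98 and Ido1 at 1.95 (0.54 to 3.36). Each of them had 12 to 19 counts in the Enl-WT chosen nuclei. Their levels were 5.40 to 8.55 CPM there against 13.1 to 24.4 in the other nuclei of Enl-WT, and 24.9 to 35.5 CPM in Enl-T1 chosen nuclei against 17.7 to 23.1 in the others. The 5 lowest were Kcnk13, Msx2 at -2.78, Nkx2-2 at -2.76 (-6.18 to -1.12), Tmem114 at -2.61 and En2 at -2.37. Kcnk13, a potassium channel gene, had 18.004 CPM in Enl-WT chosen nuclei and no count in those of Enl-T1, where 3 counts would make 2.87 CPM. None of these 10 genes is in a list of the distal nephron.

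Single regions gave the sharpest contrasts. Of 110509 regions outside the markers, the 500 most open in chosen over other nuclei of Enl-WT had a median log2 ratio of 2.30 there, where they were picked, and 1.39 in Enl-T1, which took no part in picking them. Of these regions 85.6% were above 0 in Enl-T1, against 47.3% of all regions, and 64.0% were at least 2-fold higher, against 14.1%. These regions did not set the loop apart as a whole, with a median of 16.7 CPM in loop-cluster and 14.8 in ureteric-cluster chosen nuclei of Enl-WT. They lay away from genes' starts, with 12.2% within 2 kb of one against 27.9% of all regions, and had a median GC content of 46.7% against 49.7%.

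The first of them (chr6:17556829-17557901) lies in an intron of Met, the receptor for hepatocyte growth factor. It had 48 counts and 21.6 CPM in chosen nuclei of Enl-WT against 2.496 in the others, a log2 ratio of 3.11 (2.42 to 3.74), and 7.67 against 1.96 CPM in Enl-T1, 1.97 (0.06 to 3.37). Within Enl-WT chosen nuclei it had 30.7 CPM in the loop cluster and 4.23 in the ureteric clusters. The fourth, between genes at chr1:185533734-185534776 with the start of Slc30a10 79.4 kb away, had 60 counts in Enl-WT chosen nuclei. All of its level lay outside the ureteric clusters, with 40.4 CPM in the loop cluster and 0 in the ureteric ones, and no count was found in chosen nuclei of Enl-T1, where 3 counts would make 2.87 CPM. The fifth, at chr1:33394575-33396520, behaved alike, with 44.6 CPM in the loop cluster, 0 in the ureteric clusters and 4.79 CPM in Enl-T1 chosen nuclei against 5.40 in the others. The rest of the first 8 lay in introns of Iqschfp, Astn2 and Sh3rf3 or between genes, and had log2 ratios of 2.83 to 3.08 in chosen nuclei of Enl-WT and 0.93 to 1.81 in those of Enl-T1.

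Several motifs were more common in these regions than in all regions. The middle 300 bases of the 439 regions at least 2 kb from a start were searched on both strands and compared with all 79680 such regions. The HNF1 motif GTTAATNAT was found in 6.15% (4.09 to 8.82%) against 1.42%, and the POU motif ATGCAAAT, of the family of Pou3f3, in 5.69% (3.72 to 8.29%) against 1.70%. The grainyhead motif AACCGGTT was found in 0.911% (0.249 to 2.32%) against 0.156%, from 4 regions. GCCNNNGGC, bound by TFAP2 factors, was found in 13.9% (10.8 to 17.5%) against 8.85%, and the homeobox motif TAATTA, which can overlap that of HNF1, in 12.1% against 8.80%.

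The GATA motif AGATAAG was less common, in 2.05% (0.942 to 3.86%) against 4.07%, and the ETS motif CCGGAAGT was not found, against 0.477%, where a count of 0 in 439 has an upper bound of 0.837%. The other motifs searched were TGANTCA (AP1), at 13.9% against 11.4%, TCAGGTTTC (Six2 and its relatives), TCAAGGTCA (ESRR), GGAATG (TEAD), TTTATNG (HOX), CCGCCC (SP), TGTTTAC (FOX) and CAAAGTCCA (HNF4), whose intervals included the value of all regions. Of 32851 RefSeq promoters, searched over the 250 bases before the start, 0.737% held the HNF1 motif, 1.60% the POU motif and 13.7% the TFAP2 motif. The 500 regions most open in chosen nuclei of Enl-T1, at any distance from a start, held the HNF1 motif in 8.0%, the POU motif in 4.0% and the AP1 motif in 17.2%. All regions at any distance held them in 1.23%, 1.60% and 10.1%, and the full 500 of Enl-WT in 5.8%, 5.6% and 13.2%. The TFAP2 motif was in 13.6% of the full 500 of Enl-WT (10.7 to 16.9%), against 12.2% of all regions, and in 10.0% of the Enl-T1 500. The GATA motif was in 1.8% of the Enl-WT 500, 5.0% of the Enl-T1 500 and 3.57% of all regions. It was in 6.8% of the 500 most open in Enl-WT chosen nuclei of the ureteric clusters. So neither the higher TFAP2 share nor the lower GATA share was seen in Enl-T1. A match is a string of letters, not a bound site.

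Examples of these motifs are printed below with the matches of the HNF1, POU, grainyhead and TFAP2 motifs alone in capitals, from the plus strand of GRCm38.p6. The Met intron region (chr6:17557215-17557514) is the middle of the region described above, with a TFAP2 match. The HNF1 motif region (chr10:68874127-68874426), between genes with the start of Tmem26 150 kb away, had 32 counts in chosen nuclei of Enl-WT and a log2 ratio of 2.66, and 1.67 in Enl-T1. Its capitals hold overlapping matches on both strands. The POU motif region (chr4:120598896-120599195), in an intron of Gm8439, had 74 counts in chosen nuclei of Enl-WT and 18 in those of Enl-T1, with log2 ratios of 2.67 and 2.75.
Met intron region: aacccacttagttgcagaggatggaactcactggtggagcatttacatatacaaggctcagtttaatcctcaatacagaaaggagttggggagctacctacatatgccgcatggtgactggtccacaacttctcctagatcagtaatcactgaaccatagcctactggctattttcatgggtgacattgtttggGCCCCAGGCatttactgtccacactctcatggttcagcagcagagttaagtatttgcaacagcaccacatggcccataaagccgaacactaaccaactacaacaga
HNF1 motif region: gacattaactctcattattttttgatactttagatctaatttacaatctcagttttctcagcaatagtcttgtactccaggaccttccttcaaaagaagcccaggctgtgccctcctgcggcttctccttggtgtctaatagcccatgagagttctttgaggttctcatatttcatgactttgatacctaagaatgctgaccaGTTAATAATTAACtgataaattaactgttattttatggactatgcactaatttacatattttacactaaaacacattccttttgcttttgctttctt
POU motif region: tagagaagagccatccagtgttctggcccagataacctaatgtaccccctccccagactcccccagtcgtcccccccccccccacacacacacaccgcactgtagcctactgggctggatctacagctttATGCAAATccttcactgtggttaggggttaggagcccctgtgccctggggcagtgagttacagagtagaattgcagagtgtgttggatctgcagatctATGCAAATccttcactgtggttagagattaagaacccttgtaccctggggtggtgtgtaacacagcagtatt

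**Figure D5:**
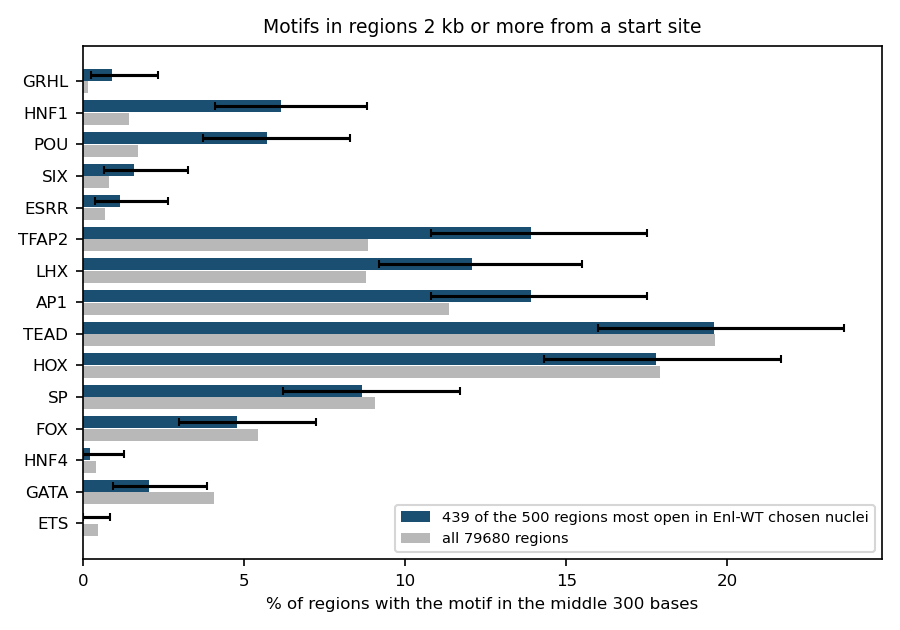
Percentage of regions with each of 15 motifs in their middle 300 bases, among 439 of the 500 regions most open in Enl-WT chosen nuclei (dark, with 95% intervals) and all 79680 regions (grey), 2 kb or more from a start site. The HNF1 motif stood at 6.15% against 1.42% and the POU motif at 5.69% against 1.70%.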

How the data were processed

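The study measured E15.5 mouse kidneys by snATAC-seq on the 10x platform, with 1 Enl-WT and 1 Enl-T1 library. The authors aligned the reads to mm10 with Cell Ranger ATAC 2.1.0, called peaks library by library and deposited raw counts per peak and barcode. These deposited counts are whole numbers of cut sites, and 2 counts were taken as 1 fragment. The study's filters on fragments, blacklisted regions and signal at start sites need fragment files and were not applied, and doublets were not removed. The libraries held 9628 and 13376 barcodes and 138176616 and 110265593 counts. Barcode sequences present in both numbered 169, with 0 among the chosen nuclei.

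Genes followed GENCODE M21. Peaks of the libraries overlapping by 1 bp were joined into 110706 shared regions, whose sums served for comparisons over genes and regions, scaled to CPM. Clusters came from latent semantic indexing (components 2 to 30) and the Leiden algorithm (leidenalg 0.10.2, resolution 1, 15 neighbours). Clusters were named by the class whose markers had the highest mean log2 ratio, where this reached 0.4 and 3 markers were raised. Intervals are exact, Clopper-Pearson for shares and Poisson or binomial on fragments for CPM and ratios. The members, lists and motifs were chosen with earlier results of these data known. Named genes were list genes, the 12 highest ratios in Enl-WT chosen nuclei, the 5 highest and 5 lowest Enl-T1 to Enl-WT ratios, and the 8 highest regions. Alternatives changed the depth limits, the rule, the regions, the scaling, the added count and the clustering. Some genes of the lists are counted in them but not reported here by name.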

Additional observations from a re-analysis of the deposited data

Results flagged for a closer look

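This search covered the named genes only, not all genes. For 2 of them the chosen and the other nuclei differed in opposite directions in the libraries, with intervals that exclude no change in both. Pecam1, an adhesion gene of endothelium, had a log2 ratio of chosen over other nuclei of 0.51 (0.07 to 0.89) in Enl-T1 and -0.67 (-1.12 to -0.29) in Enl-WT. Part of its regions also belong to the neighbouring Milr1. Morc1 had 0.73 (0.01 to 1.44) in Enl-T1 and -1.50 (-3.07 to -0.49) in Enl-WT, from 35 and 13 counts. It was named for its high Enl-T1 to Enl-WT ratio in chosen nuclei, so its opposite directions are no separate result. With 1 library per group the difference was not tested. Of the nuclei below 4000 counts, which were not used, 1 of 358 from Enl-WT and 3 of 1722 from Enl-T1 met the marker conditions.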

How the results depend on the processing

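The percentage of nuclei chosen depended on the rule, in Enl-WT and Enl-T1 in that order. It was 0.841% and 0.489% with the top 1%, 3.44% and 1.70% with the top 5%, 1.07% and 0.266% with at least 4 markers, 0.496% and 0.129% after thinning, 1.40% and 0.575% without Sim1, and 1.29% and 0.678% without Pou3f3. It was 1.34% in Enl-WT on regions with a peak in both libraries and 1.51% without Slc12a1, and in Enl-T1 1.24% with the higher depth minimum, 1.20% with each peak counted once, 0.815% without Slc12a3 and 0.704% without Tfap2b. The ratio of the shares ranged from 1.28 to 4.01, always higher in Enl-WT. The percentage of Enl-WT chosen nuclei in the loop cluster, by alternatives chosen after seeing the data, was 79.5% with the top 1%, 51.7% with the top 5%, 75.8% with at least 4 markers, 54.0% on regions with a peak in both libraries and 47.4% with components 2 to 15. In Enl-T1 it was 0%, 0 of 15, after thinning. Of 80 alternatives to main results, 56 stayed within the 95% interval or, for a count of genes, near it. A reversal could be recorded only for the thick ascending limb list, where there was none. Of 35 marker ratios recomputed over regions called in both libraries, 29 stayed within the interval, 5 moved and 1 reversed. The ratios of Kcnj1 and Pou3f3 could not change, since all their regions were called in both. Nor could the Enl-T1 ratios of loop to ureteric clusters for Sim1, Tfap2b and Umod. The cause was not tested beyond what each alternative changes. For single genes, 158 of 164 alternatives stayed within the interval. The number of genes 2-fold apart between the libraries lay between 704 and 1142, with 417 higher and 403 lower under TMM scaling. Over regions called in both libraries, this alternative also chosen after seeing the data, the Enl-T1 to Enl-WT log2 ratio of Slc12a1 went from -0.56 to 0.76 in chosen nuclei and from -1.50 to -0.02 in the loop cluster. No paired analysis was possible because each group has 1 library, and no replicate could be left out. Few nuclei, shallow depth and the peak calls all limit the values of the 9 loop-cluster chosen nuclei of Enl-T1.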
